A study of Mus musculus with 8 samples.

Results

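The genes described here are 10 members of the cell's defence against oxidants and metals: Hmox1, Nqo1, Gclc, Gclm, Sod1, Sod2, Cat, Gpx1, Mt1 and Mt2. They were chosen by name, as the probe sets whose platform annotation gives exactly 1 of these symbols. Each of the 10 genes had 1 such probe set, among 35557 probe sets in all, of which 21789 carried a single symbol. All 10 passed the filter on dim probe sets, a mean log2 value of at least 5.25 over the 8 arrays, which left 16342 probe sets for testing. The values are RNA levels on a log2 scale, so that a difference of 1 is a doubling, measured on gene arrays with 1 array per sample.

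Striatum, the main target of midbrain dopamine neurons, was taken from both sides of the brain in 8 male mice of the inbred C57BL/6 strain, 2 in each of 4 groups, all given as 6 weeks old. Control mice received saline once a day over 4 weeks, and no needling is described for them. The other groups all received MPTP, a toxin that damages dopamine axons through inhibition of mitochondrial respiration and is used to model parkinsonism, at 20 mg/kg every 24 h over the same 4 weeks. The MPTP group received nothing else, while the acupoint group was needled on both sides at GB34 to a depth of 3 mm and at LR3 to 1 mm, and the non-acupoint group at both hips to 3 mm. Needling was repeated every 48 h for 14 sessions on mice held still by hand; holding is described for the needled mice only, so its effect and that of the needles cannot be told apart against the MPTP group. The titles name each sample as 1 mouse, and the extraction text gives n = 2 per group without describing single animals, so the samples are taken as separate mice and the p-values measure only the spread between these samples. The control and MPTP groups are described as 9 mice each, and how the 2 used on arrays were chosen is not described.

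Oxidant defence works in layers. Superoxide dismutases turn superoxide into hydrogen peroxide, catalase and glutathione peroxidases remove the peroxide, and glutathione, made by the ligase that Gclc and Gclm encode, supplies the reducing power. The transcription factor NRF2 (gene Nfe2l2), held in check by Keap1, switches on Nqo1, Hmox1, Gclc and Gclm when oxidants or electrophiles rise. Metallothioneins are small cysteine-rich proteins that bind zinc and copper; in brain Mt1 and Mt2 are made largely by astrocytes and are induced by zinc through the factor MTF1 and by glucocorticoids.

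The regulatory sequence before Mt2 is shown because metallothionein genes are known for repeated metal response elements, and that before Nqo1 because Nqo1 was the member whose arrays lay farthest from controls. RefSeq's promoter table, build GRCm38.p6, held 8 of the 10 members, without Hmox1 and Gclc. Each stretch is the 250 bases before the annotated start, 5′ to 3′ on the gene's own strand. For Mt2 this is chr8:94172368-94172617 on the plus strand, and for Nqo1 chr8:107403206-107403455 on the minus strand. Capitals mark the letters TGCACNC or TGCGCNC, the core of the metal response element, on either strand.
Mt2: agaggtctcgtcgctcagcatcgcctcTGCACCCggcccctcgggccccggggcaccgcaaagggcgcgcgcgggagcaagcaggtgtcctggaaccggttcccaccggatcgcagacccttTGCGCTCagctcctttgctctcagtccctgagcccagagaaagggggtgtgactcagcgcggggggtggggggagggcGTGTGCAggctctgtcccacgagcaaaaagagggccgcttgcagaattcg
Nqo1: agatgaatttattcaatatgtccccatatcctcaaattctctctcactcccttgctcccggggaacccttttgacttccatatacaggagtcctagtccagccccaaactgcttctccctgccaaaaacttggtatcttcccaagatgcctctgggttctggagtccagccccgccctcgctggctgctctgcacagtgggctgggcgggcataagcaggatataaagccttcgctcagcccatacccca
The Mt2 stretch held 3 of these cores, beginning 223, 128 and 50 bases before the start, and 1.26% of the 32851 promoter stretches in the table held at least 3. The Nqo1 stretch held 0, and also 0 of TGACNNNGC, the antioxidant response element core that NRF2 recognises, which 10.2% of all stretches held at least once on either strand. Bases farther upstream were not searched, so a count of 0 does not show that Nqo1 lacks either element. The Mt2, Gclm and Sod1 stretches held 1 TGACNNNGC each, that of Mt2 79 bases before the start. Metal response cores were also found in the stretches of Gclm, which held 2, and Mt1, which held 1, and 21.4% of all stretches held at least 1. Bases outside the 250 were not searched for any gene, so these counts do not give a gene's total or rank the genes. The metallothionein genes lie side by side on chromosome 8, in the order Mt4, Mt3, Mt2, Mt1.

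The arrays did not sample identical tissue. Relative to the controls, the mean of 14 tested markers of striatal projection neurons was -2.01 in MPTP mouse 1 and between -0.64 and 0.37 in the other MPTP-treated mice, so the labelled tissue was least clear in that array. Markers of thalamus, septum and pallidum (13 of 13 tested) averaged 1.56 in MPTP mouse 1 and 1.20 in non-acupoint mouse 2, and -0.62 to 0.63 in the other MPTP-treated arrays. Choroid plexus markers (11 of 12) averaged 2.27 to 2.95 in MPTP mouse 1, acupoint mouse 1 and both non-acupoint mice, and -0.21 and 0.13 in MPTP mouse 2 and acupoint mouse 2. Astrocyte markers (12 of 12), which matter most for the metallothioneins, averaged from -0.14 in MPTP mouse 2 to 0.19 in non-acupoint mouse 2. Reactive astrocyte markers (7 of 10) averaged from -0.18 to 0.44, in the same 2 arrays. These are not small beside the ranges of Mt1 (0.10) and Mt2 (0.27) over all arrays. The part of astrocyte content in Mt1 and Mt2 was not tested. In tissue RNA, fewer cells of a type and less RNA per cell cannot be told apart.

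None of the 10 genes passed the adjusted threshold in any of the 7 comparisons run. Nqo1 was the member that stood farthest from controls: its log2 level was higher in all 6 MPTP-treated mice than in both controls, by 0.44 on average. The other 9 members differed from controls by 0.11 or less on average over the MPTP-treated mice. In limma, 0% of the probe sets tested were called at an adjusted p under 0.05 in each of the 7 comparisons, so the lack of calls was shared with all other genes. The comparisons share arrays: 4 of them use the same controls and 4 the same MPTP mice, so their values are not independent. At an unadjusted p under 0.05 in limma, 1 of the 10 members, Nqo1, passed in the MPTP group against control (3.99% of probe sets did), in the non-acupoint group against control (6.05%) and in all MPTP-treated mice against control (3.38%). No member passed for acupoint needling against control (1.91%), against MPTP (3.6%) or against non-acupoint needling (3.22%), or for non-acupoint needling against MPTP (6.58%).

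**Figure D1:**
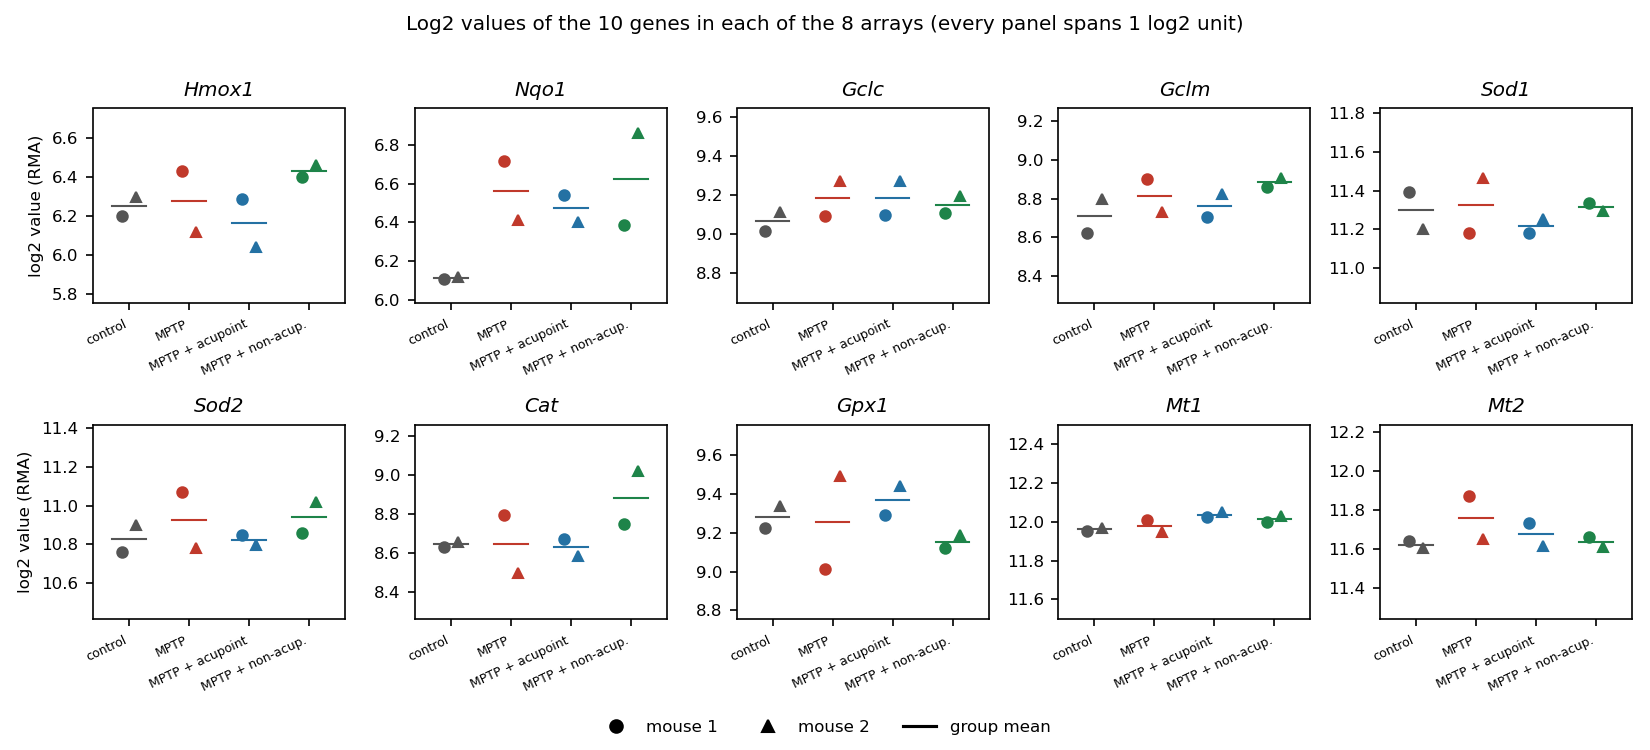
Log2 RMA values (vertical axes, each spanning 1 log2 unit) of the 10 genes in the 8 arrays, by group; circles are mouse 1, triangles mouse 2, and lines the group means. Nqo1 is at 6.11 and 6.12 in controls and between 6.39 and 6.86 in the other arrays, while Mt1 stays between 11.95 and 12.05.

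Nqo1 encodes a quinone reductase that keeps quinones, dopamine quinones among them, from cycling into reactive forms. Its log2 values were 6.11 and 6.12 in control mice 1 and 2, 6.72 and 6.41 in the MPTP mice, 6.54 and 6.40 in the acupoint mice, and 6.39 and 6.86 in the non-acupoint mice. Both controls lay below every treated array, and the needled groups overlapped the MPTP group. Of all probe sets tested, 3.72% had all 6 MPTP-treated arrays above both controls. The difference over the 6 MPTP-treated mice was 0.44 (SE 0.14, 95% interval 0.09 to 0.78, unadjusted p = 0.020, limma adjusted p = 0.98). Against control, the MPTP group alone differed by 0.45 (SE 0.18, limma adjusted p = 0.93), the acupoint group by 0.36 and the non-acupoint group by 0.51, which was 0.27 to 0.75 with 1 array left out.

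The high Nqo1 arrays were in part those high in markers of other tissue. Non-acupoint mouse 2 and MPTP mouse 1 had the highest Nqo1 and the highest thalamus, septum and pallidum marker means. MPTP mouse 2 and acupoint mouse 2, whose means of these markers were below those of controls (-0.62 and -0.13) and whose choroid plexus means were near them, had Nqo1 at 6.41 and 6.40. Non-acupoint mouse 1 had the lowest Nqo1 of the MPTP-treated arrays, 6.39, with a choroid plexus mean of 2.27. Acupoint mouse 1 had Nqo1 at 6.54, with a choroid plexus mean of 2.50. Leptomeninges markers (10 of 10 tested) averaged 0.52 in MPTP mouse 1 and 0.38 in non-acupoint mouse 2. They averaged 0.15 in acupoint mouse 1, 0.05 in non-acupoint mouse 1, -0.19 in acupoint mouse 2 and -0.21 in MPTP mouse 2. Cortical excitatory neuron markers (8 of 10) averaged from -0.69 in non-acupoint mouse 1 to -0.0003 in MPTP mouse 2. Neither of these lists was used as a covariate. The part of other tissue in the Nqo1 difference was not tested apart from treatment. High choroid plexus means occurred only in MPTP-treated arrays, so a fit with that covariate does not separate the 2. With a marker mean as a covariate, the difference over all MPTP-treated mice was 0.34 for thalamus, septum and pallidum, 0.25 for choroid plexus and 0.37 for striatal projection neurons, with limma adjusted p of 0.77, 0.85 and 0.69. Without MPTP mouse 1 the MPTP group's difference from control was 0.30, and without MPTP mouse 2 it was 0.60 (limma adjusted p = 0.096).

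**Figure D2:**
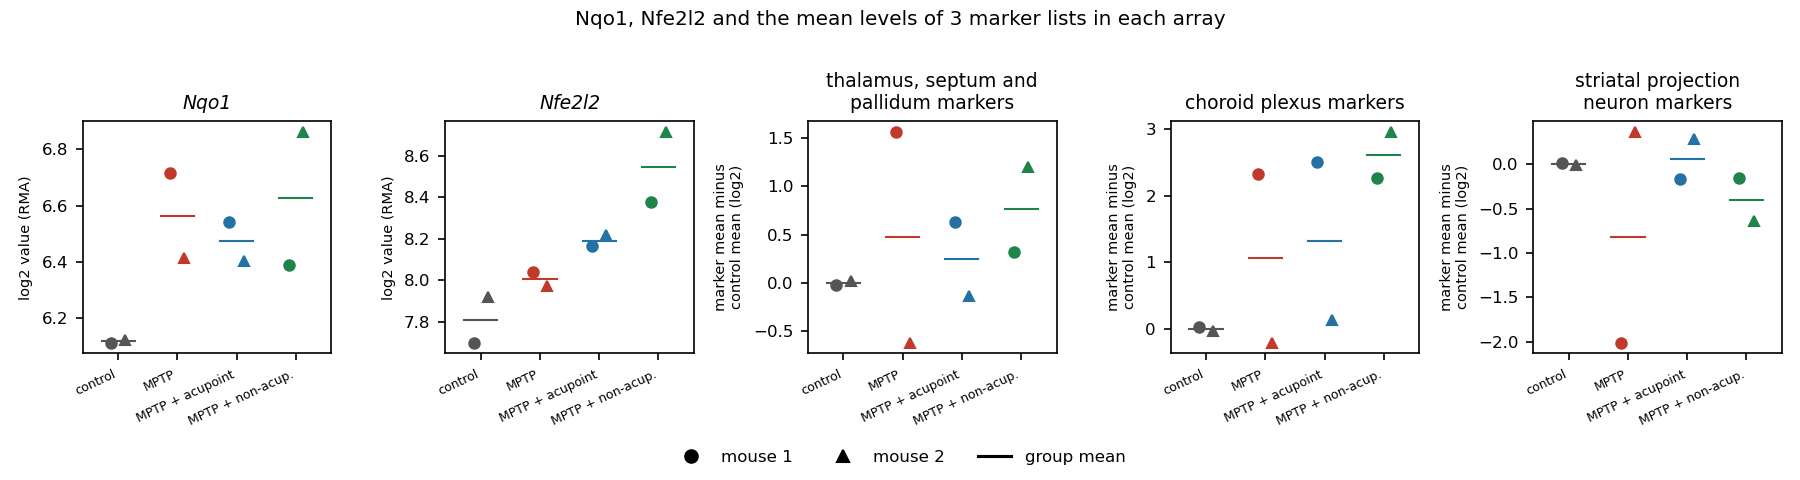
Log2 RMA values of Nqo1 and Nfe2l2, and means of 3 marker lists relative to the control mean (log2), in each array; circles are mouse 1, triangles mouse 2, lines group means. MPTP mouse 2 and acupoint mouse 2 have choroid plexus means of -0.21 and 0.13, and Nqo1 values of 6.41 and 6.40. The arrays with the highest Nqo1, non-acupoint mouse 2 and MPTP mouse 1, have choroid plexus means of 2.95 and 2.32. Non-acupoint mouse 1, with a choroid plexus mean of 2.27, has the lowest Nqo1 of the MPTP-treated arrays, 6.39.

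Hmox1 encodes the inducible heme oxygenase, which breaks heme down to biliverdin, iron and carbon monoxide. Its log2 values were 6.20 and 6.30 in controls, 6.43 and 6.12 in MPTP mice, 6.29 and 6.04 in acupoint mice and 6.40 and 6.47 in non-acupoint mice. This signal was also low, with a mean of 6.28, above 41.9% of the probe sets with a single symbol. The MPTP mice lay on either side of the controls, the acupoint mice overlapped them and both non-acupoint mice lay above them. The mean of the MPTP group differed from control by 0.02 (SE 0.14, 95% interval -0.31 to 0.36). The acupoint mean was 0.27 below the non-acupoint mean (SE 0.14, limma adjusted p = 0.96), and the 2 groups did not overlap.

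Gclc and Gclm encode the catalytic and modifier subunits of glutamate-cysteine ligase, the rate-limiting step of glutathione synthesis. Gclc was at 9.02 and 9.11 in controls, 9.09 and 9.27 in MPTP mice, 9.10 and 9.27 in acupoint mice and 9.11 and 9.19 in non-acupoint mice. Gclm was at 8.62 and 8.80 in controls, 8.90 and 8.73 in MPTP mice, 8.70 and 8.82 in acupoint mice and 8.86 and 8.91 in non-acupoint mice. For both subunits every treated array lay above control mouse 1, the lower control, and for Gclc 3 and for Gclm 4 of the 6 lay above both controls. Over all MPTP-treated mice the differences were 0.11 for each, with intervals of -0.11 to 0.33 for both genes. Without control mouse 1 the differences were 0.06 for Gclc and 0.03 for Gclm, and without control mouse 2 they were 0.16 and 0.20.

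Sod1 encodes the copper-zinc superoxide dismutase of the cytosol, and Sod2 the manganese enzyme of mitochondria. Sod1 was at 11.39 and 11.20 in controls, 11.18 and 11.47 in MPTP mice, 11.18 and 11.25 in acupoint mice and 11.34 and 11.30 in non-acupoint mice. Sod2 was at 10.76 and 10.90 in controls, 11.07 and 10.78 in MPTP mice, 10.85 and 10.79 in acupoint mice and 10.86 and 11.02 in non-acupoint mice. In the MPTP group the 2 genes pointed opposite ways in the same mice: mouse 1 had the higher Sod2 and the lower Sod1. Over all MPTP-treated mice Sod1 differed from control by -0.01 (95% interval -0.26 to 0.24) and Sod2 by 0.07 (-0.18 to 0.32); the sign for Sod1 turned positive (0.022 and 0.0066) when arrays were centred on their medians or quantile-normalised again.

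Cat encodes catalase, the peroxisomal enzyme that breaks down hydrogen peroxide, and Gpx1 the most widespread selenium-dependent glutathione peroxidase. Cat was at 8.63 and 8.66 in controls, 8.79 and 8.50 in MPTP mice, 8.67 and 8.58 in acupoint mice and 8.75 and 9.02 in non-acupoint mice. Gpx1 was at 9.22 and 9.34 in controls, 9.02 and 9.49 in MPTP mice, 9.29 and 9.44 in acupoint mice and 9.12 and 9.19 in non-acupoint mice. Cat was highest and Gpx1 lowest in arrays with high choroid plexus marker means: the non-acupoint mice and MPTP mouse 1 had the 3 highest Cat values and the 3 lowest Gpx1 values. Those means were 2.27, 2.95 and 2.32 in these arrays, against 2.50 in acupoint mouse 1; the part of choroid plexus RNA in these values was not tested. The non-acupoint group differed from the MPTP group by 0.24 in Cat (SE 0.14, limma adjusted p = 0.75; 0.09 to 0.39 with 1 array left out) and by -0.10 in Gpx1 (SE 0.16, limma adjusted p = 0.91).

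Mt1 and Mt2 had the smallest residual SD of the members. Mt1 was at 11.95 and 11.97 in controls, 12.01 and 11.95 in MPTP mice, 12.02 and 12.05 in acupoint mice and 11.999 and 12.03 in non-acupoint mice, a range of 0.10 over all arrays. The acupoint and non-acupoint mice all lay above both controls, by small amounts, while MPTP mouse 2 lay just below them. Mt2 was at 11.64 and 11.60 in controls, 11.87 and 11.65 in MPTP mice, 11.74 and 11.62 in acupoint mice and 11.66 and 11.61 in non-acupoint mice. Both MPTP mice lay above the controls in Mt2, MPTP mouse 1 by more than any other array, and the remaining groups overlapped the controls.

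The difference over all MPTP-treated mice was 0.05 for Mt1, with a 95% interval of -0.12 to 0.22, or 0.919-fold to 1.16-fold, and 0.07 for Mt2 (-0.14 to 0.28, or 0.905-fold to 1.22-fold). Against control, the MPTP group alone differed by 0.02 in Mt1 (SE 0.09) and 0.14 in Mt2 (SE 0.11; limma adjusted p = 0.93), and 0.03 in Mt2 without MPTP mouse 1. The residual SD of Mt1 between mice of a group was 0.025; 0.465% of all probe sets tested, and 2.61% of the 459 with a mean of at least 11, had a smaller one. For Mt2 it was 0.091, near the middle of those 459 probe sets (50.1% smaller). These values lie below the arrays' maxima of 14.3 to 14.4. Whether cross-hybridisation between the closely related metallothionein transcripts contributes to either probe set was not tested.

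**Figure D3:**
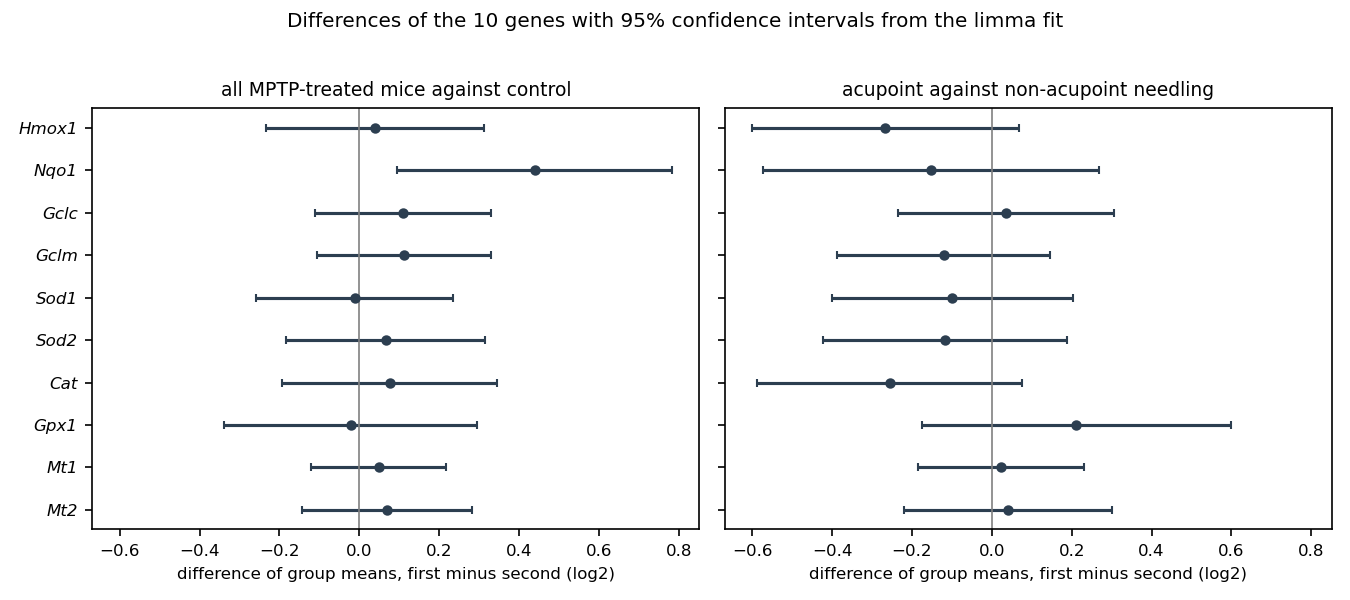
Differences of group means (log2, horizontal axes) of the 10 genes for all MPTP-treated mice minus control and for acupoint minus non-acupoint needling; points are limma estimates and bars 95% intervals. In the left panel the interval of Nqo1, 0.09 to 0.78, lies above 0 and the other 9 include it; in the right panel all 10 include 0.

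The size of the members' differences, set against that of all genes, varied with the comparison. In the MPTP group against control, 9 were higher and 1 lower, with a median difference of 0.06, against a median of 0.02 over the 14890 genes tested. Of those 14890 genes, 54.8% were higher. The median size of the difference was 0.06 for the members and 0.11 for all genes; between acupoint and non-acupoint needling it was 0.12 and 0.11. Nqo1 and Mt2 were higher without overlap, where 17.3% of probe sets were, and none was lower, where 12.1% were. In the acupoint group against control, Nqo1 and Mt1 were higher without overlap (12.7% of probe sets) and none lower (21.2%). In the non-acupoint group against control, Hmox1, Nqo1, Gclm, Cat and Mt1 were higher without overlap (26.9%) and Gpx1 lower (22.6%). Against the MPTP group, acupoint needling gave differences of at most 0.11 in size, with 3 members higher and 7 lower, and non-acupoint needling at most 0.24, with 6 higher and 4 lower. Of all genes, 39.3% were higher with acupoint and 48.1% with non-acupoint needling than with MPTP alone. Only Mt1 was higher in both acupoint mice than in both MPTP mice, by 0.06 on average, with 8.41% of probe sets higher without overlap, and none was lower without overlap, where 18.9% were. With non-acupoint needling no member was apart from the MPTP group, where 15.4% of probe sets were higher and 17.7% lower.

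The acupoint and non-acupoint groups were apart for 6 of the 10 genes. Hmox1, Gclm, Sod1, Sod2 and Cat were lower with acupoint needling in both mice than in either non-acupoint mouse, where 24.6% of probe sets were, and Gpx1 was higher, where 13.9% were. The differences of these 6 were -0.27, -0.12, -0.10, -0.12, -0.26 and 0.21 in that order, and each limma adjusted p was 0.96. With 1 array left out they ranged from -0.39 to -0.14 for Hmox1, -0.18 to -0.06 for Gclm, -0.14 to -0.06 for Sod1, -0.20 to -0.04 for Sod2, -0.39 to -0.12 for Cat and 0.13 to 0.29 for Gpx1. The lowest size came without acupoint mouse 2 for Hmox1 and Gpx1, without acupoint mouse 1 for Gclm and Sod1, and without non-acupoint mouse 2 for Sod2 and Cat. These groups also differed in markers: choroid plexus means were 2.50 and 0.13 in the acupoint mice and 2.27 and 2.95 in the non-acupoint mice, and those of thalamus, septum and pallidum 0.63 and -0.13 against 0.32 and 1.20. The part of this difference in tissue in the 6 genes was not tested.

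The spread between the mice of a group was as large as the differences between groups for most members. For 7 of the 10 genes, the largest difference between the 2 mice of any 1 group exceeded the range of the 4 group means, as it did for 73.0% of all genes. The exceptions were Nqo1, Gclm and Mt1. Gpx1 differed by 0.48 between the 2 MPTP mice, against a range of 0.21 between group means, and Sod1 by 0.28 against 0.11. The MPTP group held the largest such difference for 8 members and for 49.5% of all genes.

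**Figure D4:**
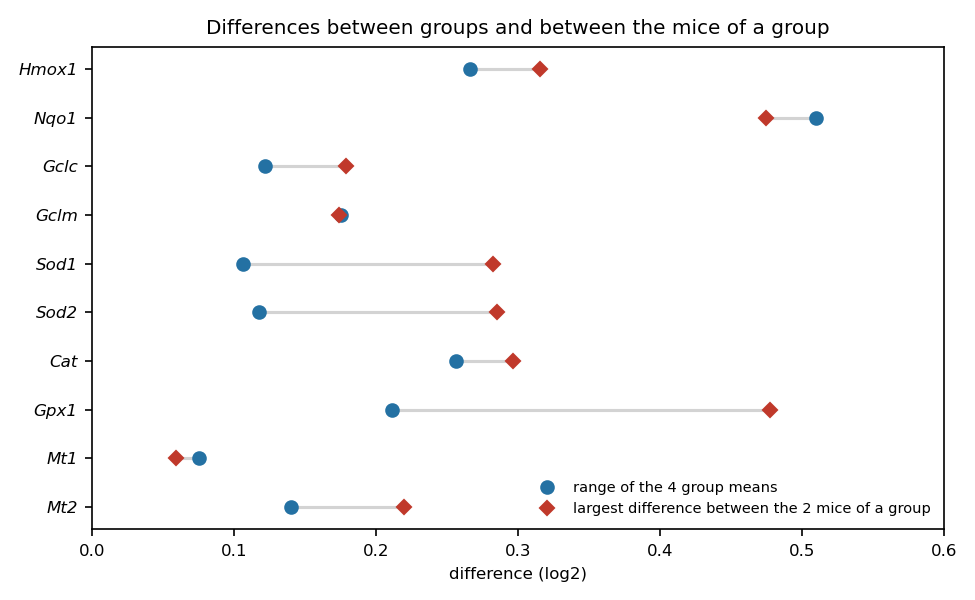
For each gene, the range of the 4 group means (circles) and the largest difference between the 2 mice of any group (diamonds), both in log2 units on the horizontal axis. Diamonds lie to the right of circles for 7 genes, most widely for Gpx1 (0.48 against 0.21) and Sod1 (0.28 against 0.11).

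The regulators of these genes were measured on the same arrays. Nfe2l2, which encodes NRF2, was at 7.70 and 7.92 in the control mice, 8.04 and 7.97 in MPTP mice, 8.16 and 8.22 in acupoint mice and 8.38 and 8.72 in non-acupoint mice. The 4 groups did not overlap, an arrangement that 1.17% of probe sets showed in some order and none of the 10 members did. The non-acupoint group was 0.74 above control (SE 0.14, 95% interval 0.41 to 1.07, unadjusted p = 0.0012, limma adjusted p = 0.77) and 0.54 above the MPTP group (SE 0.14, limma adjusted p = 0.62). With each of the 3 marker means in turn as a covariate, its difference from control lay between 0.68 and 0.72. Choroid plexus means were 2.27 and 2.95 in the non-acupoint mice and 0.03 and -0.03 in the controls. A fit with that covariate therefore does not separate tissue from treatment, and the part of other tissue in Nfe2l2 was not tested. NRF2 is regulated chiefly through the stability of its protein, which these arrays do not measure.

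The counterparts of NRF2 stayed closer to control. Over all MPTP-treated mice, Keap1, the adaptor that targets NRF2 for breakdown, differed from control by -0.02 (95% interval -0.28 to 0.24). Bach1, a heme-sensitive repressor of Hmox1, differed by -0.13 (-0.37 to 0.10). Mtf1, the zinc-sensing activator of metallothionein genes, differed by 0.13 (-0.09 to 0.35), with values of 7.34 and 7.43 in controls, 7.33 and 7.57 in MPTP mice, 7.41 and 7.45 in acupoint mice and 7.60 and 7.71 in non-acupoint mice, so that the non-acupoint mice were highest. The nearest relatives of the members also had intervals that include 0: Mt3, the neuronal metallothionein, 0.03 (-0.15 to 0.21); Hmox2, the constitutive heme oxygenase, -0.12 (-0.31 to 0.08); Sod3, the extracellular dismutase, 0.29 (-0.18 to 0.77); and Gpx4, the lipid hydroperoxidase, 0.07 (-0.14 to 0.28).

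The pathway lists are described by counts and medians, beside shares and medians over all genes. Some genes are in more than 1 list, so the lists' values are not independent. This holds for 9 of the 29 listed NRF2 genes and 4 of the 30 glutathione genes. Of all genes tested, 54.8% were higher in the MPTP group than in controls and 50.1% over all MPTP-treated mice. The share was 43.3% for acupoint and 51.2% for non-acupoint needling against control, and 48.1% for non-acupoint needling against MPTP. Over the 7 comparisons, the median difference ranged from -0.02 to 0.07 for NRF2 regulators and other targets, -0.07 to 0.09 for glutathione genes, -0.13 to 0.14 for thioredoxins and peroxiredoxins, -0.03 to 0.09 for superoxide sources, -0.07 to 0.03 for heme and iron genes, -0.06 to 0.09 for zinc and copper genes and 0.01 to 0.20 for glucocorticoid-responsive genes, against -0.04 to 0.02 for all genes. Limma called 0 genes of these lists in each comparison.

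In the MPTP group against control, 18 of the 27 tested NRF2 regulators and targets were higher and 9 lower, with a median of 0.07 against 0.02 for all genes. Of the same 27 genes, all outside the 10 members, 15 were higher and 12 lower over all MPTP-treated mice, with a median of 0.01 against 0.00 for all genes, and limma called 0; 3 were higher and 0 lower at an unadjusted p under 0.05, where 1.87% of probe sets were higher. The 3 were Nfe2l2 itself, Ephx1 and Abcc4. Ephx1, the microsomal epoxide hydrolase, was at 8.73 and 8.65 in controls and between 8.84 and 9.42 in the 6 treated mice, a difference of 0.37 (SE 0.13), and 0.25 with the choroid plexus mean as a covariate. Abcc4, an export pump, differed by 0.31 (SE 0.10), and 0.19 with that covariate. Srxn1, which repairs overoxidised peroxiredoxins, was 0.37 higher in the MPTP group (SE 0.16), at 9.07 and 8.59 against 8.47 and 8.45. The difference was 0.13 without MPTP mouse 1 and 0.61 without MPTP mouse 2. Ftl1, the ferritin light chain, lay lower in all 6 MPTP-treated mice than in both controls, by 0.25 on average (SE 0.10), where 3.56% of probe sets did. With the choroid plexus mean as a covariate its difference was -0.11.

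The glutathione, thioredoxin and superoxide lists likewise held no call. Of 26 genes of glutathione synthesis and use, 14 were higher and 12 lower with non-acupoint needling than with MPTP alone, and 3 higher ones had an unadjusted p under 0.05, where 3.51% of probe sets did. Gpx3, the plasma glutathione peroxidase, was at 7.04 and 6.98 in controls, 6.98 and 6.55 in MPTP mice, 7.16 and 7.03 in acupoint mice and 7.58 and 7.28 in non-acupoint mice, 0.66 higher in the non-acupoint than in the MPTP group (SE 0.17, limma adjusted p = 0.62). Slc7a11, the cystine transporter that feeds glutathione synthesis, was higher by 0.48 in the same comparison (SE 0.15, limma adjusted p = 0.66). Gpx8, an endoplasmic reticulum peroxidase, was 1.03 above control in the non-acupoint group (SE 0.33), and 0.20 with the choroid plexus mean as a covariate.

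Of 15 thioredoxin and peroxiredoxin genes, 9 were higher and 6 lower in the MPTP group than in controls, and only Txnip had an unadjusted p under 0.05, where 1.88% of probe sets were lower. Txnip, an inhibitor of thioredoxin, was 0.32 lower (SE 0.12), at 7.93 and 8.07 against 8.27 and 8.38. Of 13 genes of superoxide sources and related enzymes, 8 were higher and 5 lower over all MPTP-treated mice. Xdh, which encodes xanthine oxidoreductase, a producer of superoxide, was at 6.06 and 6.26 in controls, 6.69 and 6.43 in MPTP mice, 6.64 and 6.59 in acupoint mice and 6.55 and 6.53 in non-acupoint mice. All 6 MPTP-treated mice lay above both controls, as for Nqo1, with a difference of 0.41 (SE 0.10, unadjusted p = 0.0049, limma adjusted p = 0.98) and 0.31 to 0.37 with a marker covariate.

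Metal handling genes also gave no call. Of 26 zinc and copper genes outside Mt1 and Mt2, 17 were higher and 9 lower in the non-acupoint group than in controls, with 12 higher and 5 lower without overlap, where 26.9% and 22.6% of probe sets were. In the acupoint group against control, 13 were higher and 13 lower, with 1 higher and 8 lower without overlap, where 12.7% and 21.2% were. Atp7a, a copper pump, was 0.78 higher in the non-acupoint group than in controls (SE 0.22, limma adjusted p = 0.77). Slc31a1, the copper importer, was 0.96 higher in the same comparison (SE 0.41). With the choroid plexus mean as a covariate these differences were 0.28 and -0.07. Of 16 heme and iron genes, 7 were higher and 9 lower in the acupoint group than in controls. Slc40a1, the iron exporter ferroportin, was lower by 0.49 (SE 0.14, limma adjusted p = 1.00), at 7.48 and 7.23 against 7.76 and 7.93.

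Glucocorticoid-responsive genes are set beside the metallothioneins because glucocorticoids induce Mt1 and Mt2. Of 16 such genes other than Mt1 and Mt2, 13 were higher and 3 lower over all MPTP-treated mice. Their median was 0.20 against 0.00 for all genes, and limma called 0. At an unadjusted p under 0.05 in limma, 4 were higher and 1 lower, where 3.38% of probe sets passed. In the acupoint group against control, 6 were higher and 1 lower at that threshold (1.91%). There 10 were higher and 2 lower without overlap (12.7% and 21.2%). In the MPTP and non-acupoint groups against control, 2 passed in each (3.99% and 6.05%). The list was chosen with earlier results of these data known. Over all MPTP-treated mice, Zbtb16, a transcription factor, was 0.84 above control (SE 0.20, limma adjusted p = 0.98), and 0.53 with the choroid plexus mean as a covariate. Sgk1, a kinase, was at 8.86 and 9.07 in controls, 9.84 and 9.77 in MPTP mice, 9.98 and 9.82 in acupoint mice and 8.83 and 9.06 in non-acupoint mice. It was 0.84 above control in the MPTP group (SE 0.13, limma adjusted p = 0.93) and differed by -0.01 in the non-acupoint group (95% interval -0.32 to 0.29). Dusp1, a phosphatase, was lower by 0.58 over all MPTP-treated mice (SE 0.10, limma adjusted p = 0.98). Without MPTP mouse 2, which leaves 1 array in the MPTP group, Zbtb16 was 0.96 above control over all MPTP-treated mice. Sgk1 was 0.87 above control in the MPTP group in that setting. Mt1 and Mt2 differed by 0.05 and 0.07 over all MPTP-treated mice.

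The levels of Mt1 and Mt2 varied little with each other: Pearson's r over the 8 arrays was 0.14. Among the tested genes most like the mean of both were Plekha6, Atg4b, Ctdsp1, Klf15 and Ube2e3. Their r was 0.92 to 0.95 over 8 arrays and 0.73 to 0.86 without MPTP mouse 1. These genes were picked for high r from a large set over few arrays. Their r alone therefore cannot show that they vary with the metallothioneins. The range over all arrays was 0.27 for Mt2 and 0.10 for Mt1, so the mean of both follows Mt2 more. That mean had a range of 0.15 on the log2 scale, so the likeness rests on small differences.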

How the data were processed

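RNA of 8 striata was hybridised to whole-transcript Affymetrix gene arrays from 300 ng of total RNA, per the labels' protocols. The deposited values are log2 values made by the authors with Affymetrix Expression Console and RMA, per the submitters' processing notes; RMA subtracts background, equalises the arrays' distributions and summarises probes, so a shift common to most genes would not show. Versions and genome build are not given in the sources used here. Array medians lay between 6.02 and 6.12.

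Probe sets with 1 symbol in the platform table and a mean at or above the 25th percentile of such probe sets were fitted in 1 limma model of the 4 groups over 8 arrays (limma 3.58.1, R 4.3.3, lmFit and eBayes, with 4 residual df and a prior of 2.94 df). The Benjamini-Hochberg adjustment covered all 16342 probe sets, with 0.05 as the threshold, and adjusted p-values come from this model unless another is named. Intervals are 95% intervals of the same fit. With 2 arrays against 2, an exact test cannot go below p = 0.333. For gene lists, the brightest probe set of a gene was used. Marker values are means over a list, relative to the controls.

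The sample titles name separate mice, which the extraction text does not state. Replicate numbers did not pair them: deviations of same-numbered mice correlated between -0.49 and 0.40. The members, lists, the 7 comparisons and the rule for named genes were chosen with earlier results of these data known. Named genes are the members, their regulators and nearest relatives, and up to 3 genes of each list with the smallest p per comparison. They also include 5 of the genes most like the metallothioneins. Alternatives were other filters, shrinkage, normalisations, array weights, the compared groups alone, a replicate block and each array left out. The 3 marker covariates were added after seeing the data. Where marker means differ between the compared groups, a fit with that covariate does not separate tissue from treatment.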

Additional observations from a re-analysis of the deposited data

How the results depend on the processing

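No member passed the adjusted threshold under any of the 935 alternative fits of its 52 differences. The signs were less stable: 29 of the 52 turned when 1 array was left out, and 9 of the 498 fits with another planned setting gave the opposite sign, each under another normalisation. The log2 differences over the fits without 1 array follow for those that turned. For MPTP against control they were Hmox1 from -0.13 to 0.18, Sod1 from -0.12 to 0.17, Sod2 from -0.046 to 0.24, Cat from -0.15 to 0.15, Gpx1 from -0.26 to 0.21 and Mt1 from -0.013 to 0.046. For acupoint needling against MPTP they were Hmox1 from -0.27 to 0.047, Nqo1 from -0.24 to 0.061, Gclc from -0.086 to 0.092, Gclm from -0.14 to 0.034, Sod1 from -0.25 to 0.035, Sod2 from -0.25 to 0.038, Cat from -0.17 to 0.13, Gpx1 from -0.13 to 0.35 and Mt2 from -0.20 to 0.023. For non-acupoint needling against MPTP they were Hmox1 from -0.0014 to 0.31, Nqo1 from -0.18 to 0.30, Gclc from -0.12 to 0.057, Gclm from -0.016 to 0.15, Sod1 from -0.15 to 0.13, Sod2 from -0.13 to 0.16 and Gpx1 from -0.34 to 0.14. For acupoint against non-acupoint needling they were Nqo1 from -0.39 to 0.084, Gclc from -0.053 to 0.12 and Mt2 from -0.019 to 0.10. For all MPTP-treated mice against control they were Hmox1 from -0.013 to 0.092, Sod1 from -0.11 to 0.084, Sod2 from -0.0025 to 0.13 and Gpx1 from -0.10 to 0.058. Centred on array medians, Cat and Gclc stood at 0.010 for acupoint and 0.0021 for non-acupoint needling against MPTP, Sod1 at 0.026 for the latter, and Sod1 and Gpx1 at 0.022 and 0.012 for all MPTP-treated mice. Quantile normalisation gave -0.018 for Cat in MPTP against control, 0.015 for Sod1 in non-acupoint needling against MPTP, -0.010 for Mt1 in acupoint against non-acupoint needling and 0.0066 for Sod1 in all MPTP-treated mice. With covariates, Nqo1 turned to -0.12 for non-acupoint needling against MPTP (choroid plexus) and to 0.055 for acupoint needling against MPTP (striatal neurons), and Slc31a1 in the non-acupoint group against control to -0.066 (choroid plexus). The cause of these turns was not tested. Nqo1 stayed above control in every such fit, by 0.36 to 0.52 over all MPTP-treated mice with 1 array left out.

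Counts of calls over all probe sets were 0 in the 7 comparisons, with 652, 588, 1076, 526, 312, 988 and 552 at an unadjusted p under 0.05. Without 1 array they ranged from 0 to 1607 for MPTP against control, 0 to 1453 and 0 to 794 for acupoint and non-acupoint needling against MPTP, and 0 to 70 for all MPTP-treated mice. The highest counts came without MPTP mouse 2, when the remaining MPTP mouse had no partner and was assumed to vary like the other groups; Srxn1, Sgk1 and Zbtb16 were called only there among the pathway genes named. Array weights gave 1 call for all MPTP-treated mice. The compared groups alone gave 1 for acupoint and 2 for non-acupoint needling against control. The thalamus covariate gave 2 for MPTP against control and 7 for non-acupoint needling against MPTP, and the striatal covariate 2 for MPTP against control and 1 for all MPTP-treated mice. With the replicate number as a block, all 7 counts stayed at 0 and no call changed. At the median filter Hmox1 and Nqo1 dropped out. The number of arrays limits the precision: over all MPTP-treated mice against control, the 95% interval ran from -0.12 to 0.22 for Mt1 and from 0.09 to 0.78 for Nqo1.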
